A study of Mus musculus with 8 samples.

Results

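Endothelial and mural cells, the cells that build blood and lymph vessels, were followed through 35 genes in first molars of Wdr72-/- and wild-type mouse pups. The genes are a list fixed by name, 22 of blood endothelium, 3 of lymphatic endothelium and 10 of mural cells. All 35 names were found once each in the deposited table of 54532 genes, and all 35 had enough reads to be among the 16205 genes tested. None was chosen by its level in these libraries, but the list was drawn up when earlier results of the same data were known.

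RNA was sequenced from 4 Wdr72-/- libraries (KO 1, 3, 4 and 5) and 4 wild-type libraries (WT 2, 3, 4 and 5), numbered as in their labels. The wild-type animals were C57BL/6, and the strain label of the knockout libraries is also C57BL/6. Age is labelled as postnatal day 12, while the dissection text gives day 13. The pulp was taken out and the rest of the molar was homogenised, so vessels of the enamel organ and of soft tissue left on the tooth could both enter the RNA. The Wdr72-/- colony was bought from a repository; the deleted part of the gene is not described, nor is the number of pups behind a library. The p-values therefore reflect variation among 8 libraries that may be technical in part.

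A vessel is lined by endothelial cells, which are joined by VE-cadherin and claudin-5 and read growth signals through the VEGF and angiopoietin receptors. Mural cells wrap the outside of that lining: pericytes on capillaries, held there by endothelial PDGF-B acting on PDGFRB, and contractile smooth muscle cells on arterioles and larger vessels. Lymphatic endothelium forms under the transcription factor PROX1 and grows through VEGFR3, the product of Flt4. In the maturation-stage enamel organ, a dense bed of fenestrated capillaries lies in the folds of the papillary layer behind the ameloblasts, and Plvap encodes the protein of the diaphragms that close such fenestrae.

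The libraries held 17084475 to 21887462 counted reads. Wdr72 was at 102, 37.8, 24.9 and 15.8 CPM, reads scaled to library size, in KO 1, 3, 4 and 5, against 173, 245, 327 and 227 CPM in WT 2, 3, 4 and 5. It was lower in every KO library than in every WT library, with the highest KO level in KO 1, and its adjusted p in edgeR was 0.080. Over all genes, 5 of 16205 passed an adjusted p of 0.05 in edgeR's quasi-likelihood test, or 0.0309%. KO 5 stood apart from the rest: its correlation with the other libraries, over log2(CPM + 1) of all genes in the table, was 0.989 to 0.994, against 0.995 to 0.998 among the others. Ameloblast genes dominated, with Ambn, Amelx, Odam, Amtn and Klk4 together at 122200 to 155800 TPM in KO and 107800 to 172600 TPM in WT.

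Vascular genes were a small and well-detected part of the RNA. TPM also scales reads by gene length, so levels of different genes can be compared. The 35 genes summed to 986 to 1115 TPM in KO libraries and 767 to 1034 TPM in WT libraries. Of the 35, 24 averaged over 10 TPM in WT and 2 were under 1 TPM, Tagln and Prox1. The highest level was that of Rgs5, a regulator of G-protein signalling that marks pericytes, at 197 ± 41.7 TPM in KO and 247 ± 30.4 TPM in WT (SD, n = 4 each). It was followed by Plvap at 103 ± 17.5 TPM in KO and 74.6 ± 7.91 TPM in WT, by Acta2, smooth muscle actin, at 96.9 ± 16.1 TPM in KO and 67.7 ± 20.3 TPM in WT, and by Mcam, an adhesion receptor, at 84.6 ± 7.50 TPM in KO and 65.1 ± 12.9 TPM in WT. In WT libraries the levels of Plvap, Acta2 and Mcam did not differ beyond their spread, while Rgs5 stood clear above them.

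The contractile genes of the mural list other than Acta2 were low. Myh11, the smooth muscle myosin, was at 2.69 TPM in KO and 2.51 TPM in WT on average, Des, the intermediate filament desmin, at 3.91 TPM in KO and 3.23 TPM in WT, and Tagln, transgelin, at 1.27 TPM in KO and 0.69 TPM in WT. Tagln is a special case: its exons share 1241 bases with Gm48529 and 108 bases with Pcsk7, both on the opposite strand, and Pcsk7 had 6772 reads against 109 for Tagln. How such reads were counted is not given in the sources used here, so the Tagln level is uncertain. Lymphatic genes were low too, with Flt4 at 3.97 TPM in KO and 3.76 TPM in WT, Lyve1, a hyaluronan receptor, at 1.41 TPM in KO and 1.32 TPM in WT, and Prox1 at 0.26 TPM in KO and 0.24 TPM in WT. Flt4 is also made by some blood capillaries and Lyve1 by macrophages, so the label lymphatic rests mainly on Prox1, which had 6 to 22 reads in a library.

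**Figure D1:**
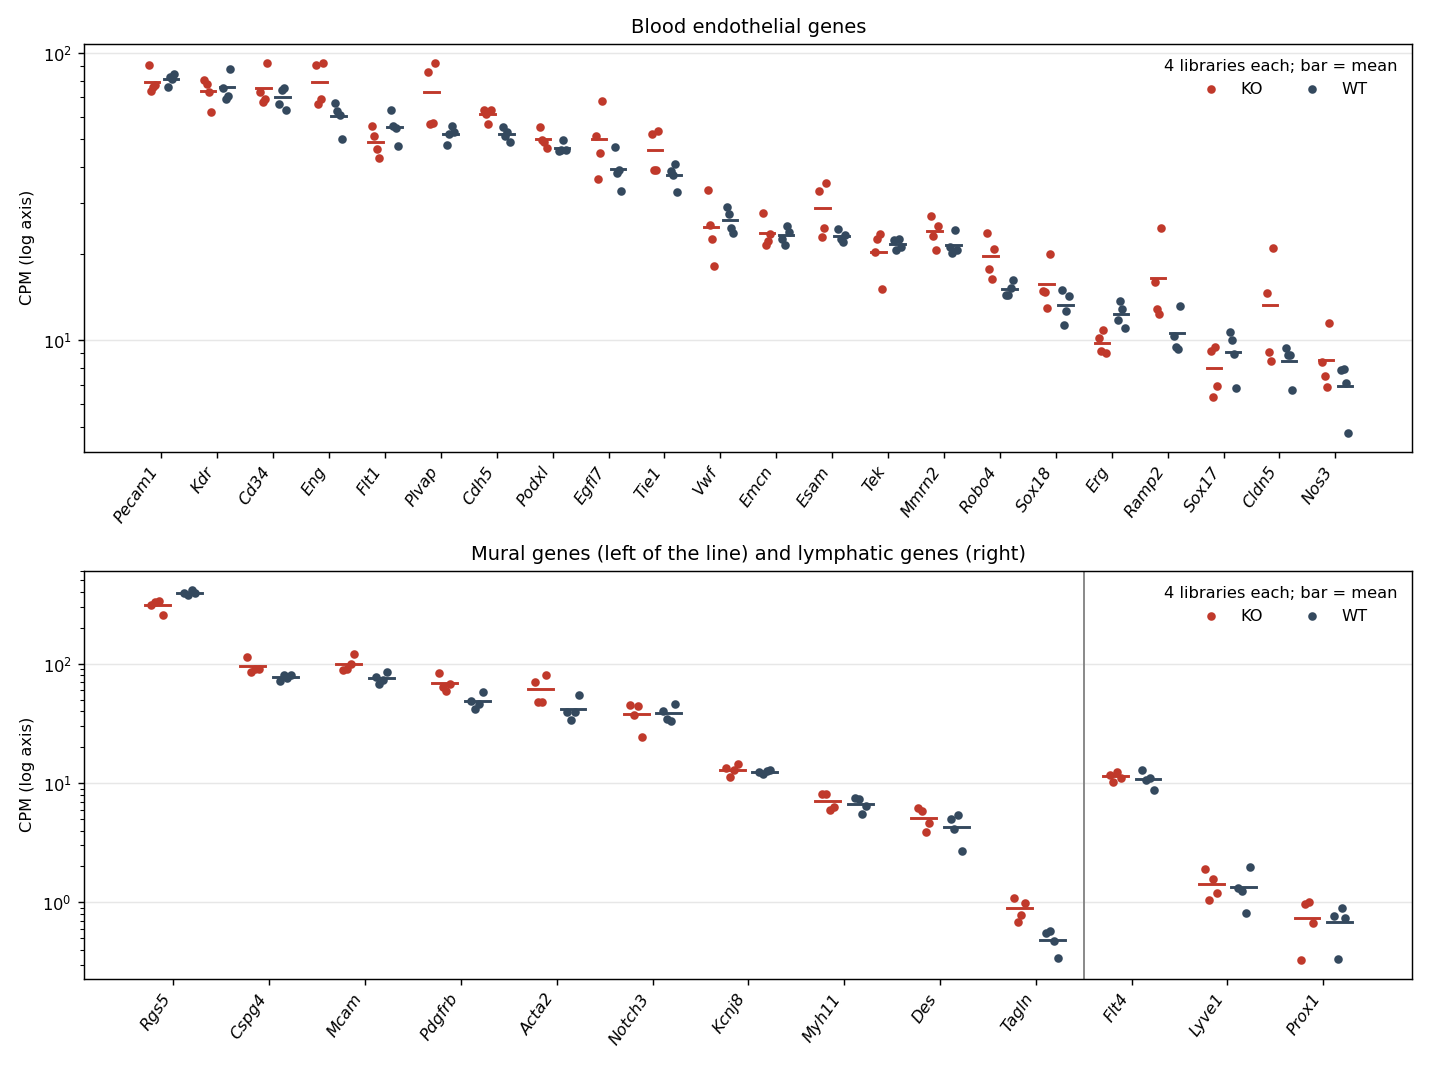
Level of each gene in CPM on a log axis, in 4 KO libraries (left of each pair, red) and 4 WT libraries (right, dark), with a bar at the mean. Rgs5 is highest and lower in KO; Plvap, Eng, Cldn5, Pdgfrb, Mcam and Acta2 are higher in KO on average, with KO 1 and KO 5 often the highest points.

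No vascular gene passed the test of KO against WT. By edgeR 0 of 35 had an adjusted p under 0.05, with adjusted p values from 0.17 to 0.94. By DESeq2 it was also 0, while 464 of 16205 genes passed. By limma voom it was 2, Pdgfrb and Mcam, while 1073 of 16205 genes passed. At an adjusted p of 0.1 in edgeR the count was also 0 of 35, with 0.611% of all genes past that line. By DESeq2 Rgs5 (adjusted p = 0.057) and Pdgfrb (adjusted p = 0.065) were under 0.1. The share of all genes under 0.1 by DESeq2 was not counted. At an unadjusted p of 0.05, 14 of 35 passed in edgeR (40.0%), against 15.7% of all genes tested. Of these, 12 were higher in KO, against 8.7% of all genes, and 2 were lower, Rgs5 and Erg, against 6.98% of all genes. In 9 of 35 genes (25.7%) the 4 KO values did not overlap the 4 WT values, 7 higher and 2 lower, against 10.9% of all genes, 5.5% higher and 5.44% lower. The log2 fold changes, KO minus WT, ran from -0.35 for Rgs5 to 0.85 for Tagln.

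The centres of the 3 groups are given as values, and differences between them were not tested. The lymphatic median rests on 3 genes, Flt4, Lyve1 and Prox1, with SE of 0.14, 0.33 and 0.42. The median log2 fold change was 0.19 for blood endothelial genes (15 of 22 above 0), 0.10 for lymphatic genes (3 of 3) and 0.28 for mural genes (8 of 10), beside 0.021 over all genes tested (53.1% above 0). The 14 genes named by the unadjusted p comprised 8 of blood endothelium (7 higher, 1 lower), 0 lymphatic and 6 mural (5 higher, 1 lower). In bulk RNA, more cells of a type and more RNA per cell cannot be told apart.

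**Figure D2:**
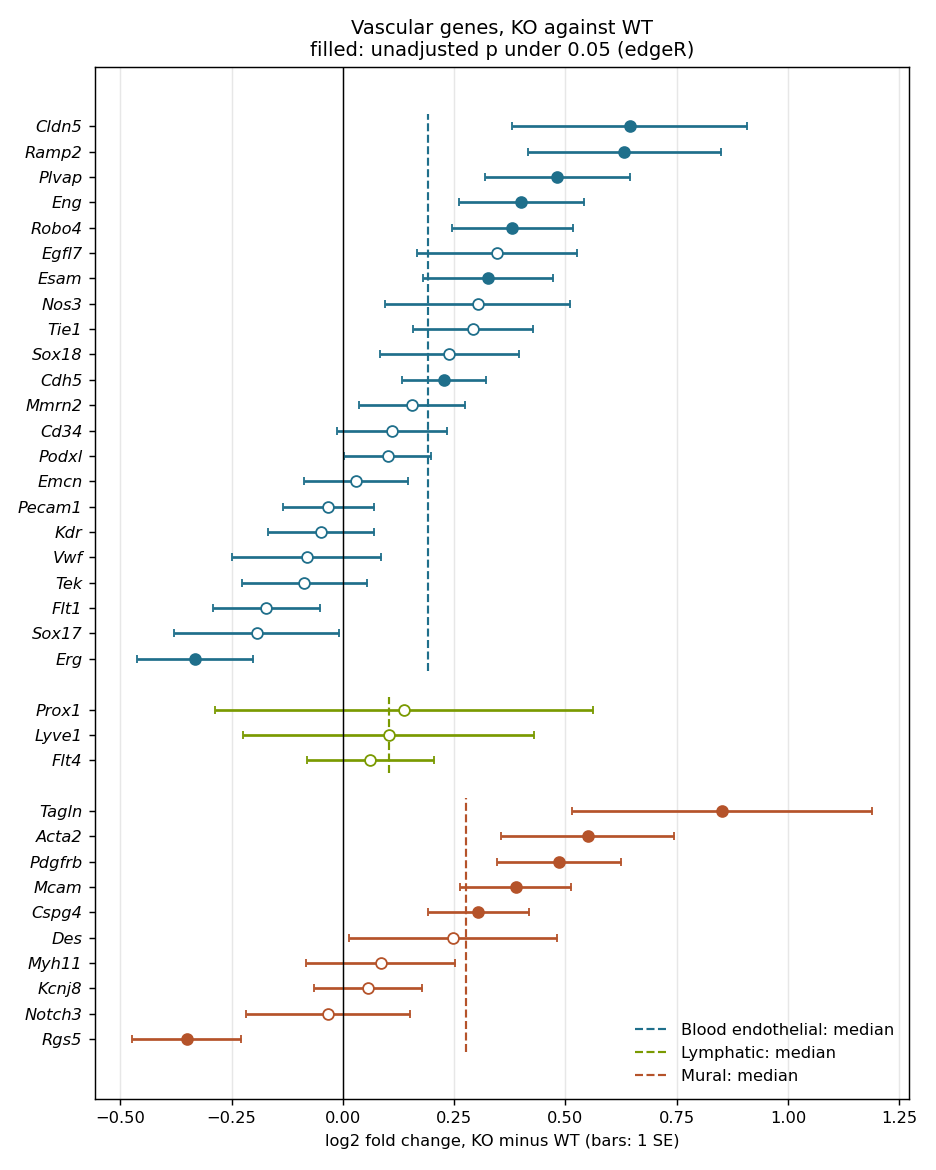
Log2 fold change, KO minus WT, of each gene with bars of 1 SE, in 3 blocks; dashed lines mark each block's median (0.19, 0.10 and 0.28). Filled points are the 14 genes with an unadjusted p under 0.05 in edgeR; each block spreads on both sides of its median, and Rgs5 lies opposite to the other filled mural genes.

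Pecam1, the VEGF receptors Kdr and Flt1, Emcn and Vwf overlapped between the genotypes. Pecam1, the junctional molecule CD31 (chromosome 11, 106654217 to 106750628, GRCm38), had 90.5, 73.5, 76.1 and 77.1 CPM in KO 1, 3, 4 and 5, against 76.2, 82.6, 80.9 and 84.6 CPM in WT 2, 3, 4 and 5. The groups overlapped, and the log2 fold change was -0.03 (SE 0.10). Kdr, the main VEGF receptor VEGFR2, had 80.4, 78.2, 72.8 and 62.1 CPM in KO, against 75.7, 69.2, 70.5 and 88.1 CPM in WT (log2 fold change -0.05, SE 0.12). Flt1, the decoy VEGF receptor VEGFR1, had 55.5, 51.5, 46.3 and 43.1 CPM in KO, against 63.5, 55.7, 54.6 and 47.5 CPM in WT (log2 fold change -0.17, SE 0.12). Both receptors overlapped between the genotypes. Emcn, an endothelial sialomucin of capillaries and veins, was at 27.7, 21.4, 22.1 and 23.3 CPM in KO and 22.5, 21.4, 24.9 and 23.8 CPM in WT (log2 fold change 0.03, SE 0.12). Vwf, the clotting factor stored by endothelium and platelets, was at 33.4, 25.1, 22.5 and 18.0 CPM in KO and 29.0, 27.4, 24.6 and 23.7 CPM in WT, so the KO libraries spread on both sides of the WT range (log2 fold change -0.08, SE 0.17).

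Plvap and Eng were higher in KO on average without passing the adjusted test in edgeR. Plvap (chromosome 8, 71497765 to 71511752) had 86.0, 56.7, 56.9 and 92.1 CPM in KO 1, 3, 4 and 5, against 47.9, 52.2, 55.6 and 53.0 CPM in WT 2, 3, 4 and 5. All KO values lay above all WT values, but KO 3 and KO 4 by only 1.08 CPM or more, while KO 1 and KO 5 were far above (log2 fold change 0.48, SE 0.16, adjusted p = 0.21 in edgeR). Eng, the TGF-beta co-receptor endoglin, had 90.5, 66.2, 69.1 and 92.1 CPM in KO, against 66.9, 62.8, 60.8 and 50.02 CPM in WT (log2 fold change 0.40, SE 0.14, adjusted p = 0.23 in edgeR). Again KO 1 and KO 5 were the high libraries, and KO 3 lay below WT 2. Plvap and Eng overlap Gtpbp3 and Fpgs on the opposite strand, which had 33.8% and 20.3% as many reads. Eng shares 61 exon bases with Fpgs, so its count is uncertain. Plvap shares 0 exon bases with Gtpbp3, so its count is uncertain only if reads outside exons were counted.

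Cdh5, Robo4, Cldn5, Esam and Ramp2 were higher in KO on average, and none passed the adjusted test in edgeR. The junctional gene Pecam1, given above, was not higher. Cdh5, VE-cadherin, had 63.1, 61.4, 56.4 and 63.4 CPM in KO, against 54.98, 51.5, 53.2 and 49.0 CPM in WT, groups that did not overlap (log2 fold change 0.23, SE 0.09). Robo4, an endothelial receptor that steadies vessels, had 23.7, 17.6, 16.3 and 20.7 CPM in KO, against 14.4, 14.3, 15.2 and 16.2 CPM in WT, again without overlap though KO 4 and WT 5 nearly met (log2 fold change 0.38, SE 0.14). Cldn5, the tight junction protein claudin-5, had 14.5, 9.09, 8.42 and 21.0 CPM in KO, against 9.36, 8.88, 8.88 and 6.73 CPM in WT (log2 fold change 0.64, SE 0.26). For Cldn5 only KO 1 and KO 5 stood above WT; KO 3 and KO 4 lay inside the WT range. Esam, an endothelial adhesion molecule, had 33.0, 22.9, 24.6 and 35.1 CPM in KO and 24.4, 22.5, 21.98 and 23.3 CPM in WT (log2 fold change 0.33, SE 0.15). KO 1 and KO 5 of Esam were well above WT, KO 4 just above WT 2, and KO 3 inside the WT range. Ramp2, which with Calcrl forms the adrenomedullin receptor, had 15.9, 12.8, 12.3 and 24.5 CPM in KO, against 10.4, 9.498, 9.30 and 13.1 CPM in WT (log2 fold change 0.63, SE 0.22). Here WT 5 exceeded KO 3 and KO 4, and KO 5 was again the highest library. Ramp2 shares 1103 exon bases with Vps25 on the same strand, which had 6.0% as many reads. How reads in shared bases were counted is not given, so the Ramp2 count is uncertain. The adjusted p in edgeR was 0.22 to 0.31 for these 5 genes.

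Endothelial transcription factors were mixed. Erg, an ETS factor that keeps endothelial identity, had 10.2, 9.13, 10.8 and 8.99 CPM in KO, against 11.7, 13.7, 12.8 and 11.02 CPM in WT. Every KO library was below every WT library, although KO 4 and WT 5 differed by little (log2 fold change -0.33, SE 0.13, adjusted p = 0.26 in edgeR). Sox17, a factor of arteries, and Sox18, a related one, were at -0.19 (SE 0.19) and 0.24 (SE 0.16), with overlapping groups. The other blood endothelial genes also overlapped between the genotypes. Of the angiopoietin receptor pair, Tek, which encodes TIE2, was at -0.09 (SE 0.14) and Tie1 at 0.29 (SE 0.13). Egfl7, a secreted vessel protein, was at 0.35 (SE 0.18) and Nos3, the endothelial nitric oxide synthase, at 0.30 (SE 0.21). Both are uncertain counts, since Agpat2 overlaps Egfl7 with 44.0% as many reads and Atg9b overlaps Nos3 with more reads than Nos3 itself. Mmrn2, a vessel matrix protein, was at 0.15 (SE 0.12), Cd34, a sialomucin also found on blood progenitors and stromal cells, at 0.11 (SE 0.12) and Podxl, a related sialomucin also of epithelia, at 0.10 (SE 0.10).

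None of the 3 lymphatic genes had an unadjusted p under 0.05 in edgeR. Flt4 was at 11.6, 10.3, 12.4 and 11.1 CPM in KO 1, 3, 4 and 5, against 12.96, 10.6, 11.1 and 8.82 CPM in WT 2, 3, 4 and 5 (log2 fold change 0.06, SE 0.14). Lyve1 was at 1.91, 1.06, 1.57 and 1.196 CPM in KO and 1.33, 1.24, 0.81 and 1.98 CPM in WT (log2 fold change 0.10, SE 0.33). Prox1 was at 0.33, 0.96, 1.01 and 0.68 CPM in KO and 0.78, 0.33, 0.90 and 0.73 CPM in WT (log2 fold change 0.14, SE 0.42). The groups overlapped in all 3 genes, and Lyve1 and Prox1, with few reads, had the widest errors of the endothelial genes.

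Mural genes split, with Rgs5 lower and 5 others higher in KO. Rgs5 (chromosome 1, 169655501 to 169695813) had 311, 332, 336 and 257 CPM in KO 1, 3, 4 and 5, against 391, 378, 420 and 389 CPM in WT 2, 3, 4 and 5. Each KO library was below each WT library (log2 fold change -0.35, SE 0.12, adjusted p = 0.23 in edgeR). Pdgfrb, the receptor that holds pericytes on vessels and is also made by dental mesenchyme (chromosome 18, 61045150 to 61085061), had 84.5, 63.4, 58.7 and 67.6 CPM in KO, against 49.2, 41.9, 46.3 and 58.3 CPM in WT. The groups did not overlap, though KO 4 and WT 5 were almost level (log2 fold change 0.49, SE 0.14, adjusted p = 0.17 in edgeR, the smallest of the 35). Cspg4, the NG2 proteoglycan of pericytes and of some glial and mesenchymal cells, had 115, 86.1, 89.8 and 90.2 CPM in KO, against 71.9, 80.0, 75.8 and 80.4 CPM in WT (log2 fold change 0.30, SE 0.11, adjusted p = 0.25 in edgeR). All KO libraries were above all WT libraries, KO 1 by most.

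Mcam, CD146 of endothelium and mural cells, had 88.5, 89.9, 98.8 and 121 CPM in KO, against 77.4, 68.2, 73.4 and 85.4 CPM in WT, without overlap (log2 fold change 0.39, SE 0.13, adjusted p = 0.20 in edgeR). Acta2 (chromosome 19, 34241090 to 34255336) had 70.0, 47.8, 47.6 and 80.0 CPM in KO, against 39.3, 33.9, 39.8 and 54.5 CPM in WT. KO 1 and KO 5 were highest, while WT 5 exceeded KO 3 and KO 4, so the groups overlapped (log2 fold change 0.55, SE 0.19, adjusted p = 0.23 in edgeR). Tagln had 20, 15, 17 and 19 reads in KO, against 10, 12, 10 and 6 reads in WT, low counts that did not overlap (log2 fold change 0.85, SE 0.34). Of the other contractile genes, Myh11 was at 8.04, 8.08, 5.98 and 6.34 CPM in KO and 7.53, 7.35, 5.55 and 6.39 CPM in WT (log2 fold change 0.08, SE 0.17). Des, which skeletal muscle also makes, was at 6.13, 5.83, 3.87 and 4.63 CPM in KO and 4.98, 4.10, 5.36 and 2.71 CPM in WT (log2 fold change 0.25, SE 0.23). Notch3, the Notch receptor of arterial smooth muscle, was at 44.96, 37.4, 44.4 and 24.4 CPM in KO and 40.6, 34.7, 33.1 and 46.3 CPM in WT, with KO 5 below every other library (log2 fold change -0.03, SE 0.18). Kcnj8, a pericyte potassium channel subunit, had a log2 fold change of 0.06 (SE 0.12).

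Rgs5 was lower and Pdgfrb higher in KO, so their ratio within a library was set out after the values had been seen and carries no test. No scaling factor touches this ratio, but it is not corrected for GC content. That is 41.1% for Rgs5, 54.9% for Pdgfrb and 59.2% for Cspg4. With the offset for GC content and length described below, their log2 fold changes were -0.22, 0.37 and 0.21. The ratios are given without that offset. Rgs5 had 3.69, 5.24, 5.72 and 3.81 times the CPM of Pdgfrb in KO 1, 3, 4 and 5, against 7.94, 9.02, 9.07 and 6.67 times in WT 2, 3, 4 and 5. Relative to Cspg4, the ratios were 2.72, 3.86, 3.74 and 2.85 in KO and 5.44, 4.72, 5.54 and 4.84 in WT. That the genotypes do not overlap in these ratios follows from the choice of genes, since Rgs5 was lower, and Pdgfrb and Cspg4 higher, in every KO library. Rgs5 made up 33.5% to 46.4% of the summed mural TPM in KO and 49.8% to 56.7% in WT. The ratio of Acta2 to Rgs5 was 0.225, 0.144, 0.142 and 0.311 in KO, against 0.101, 0.0898, 0.0948 and 0.140 in WT, where KO 4 and WT 5 were nearly equal.

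**Figure D3:**
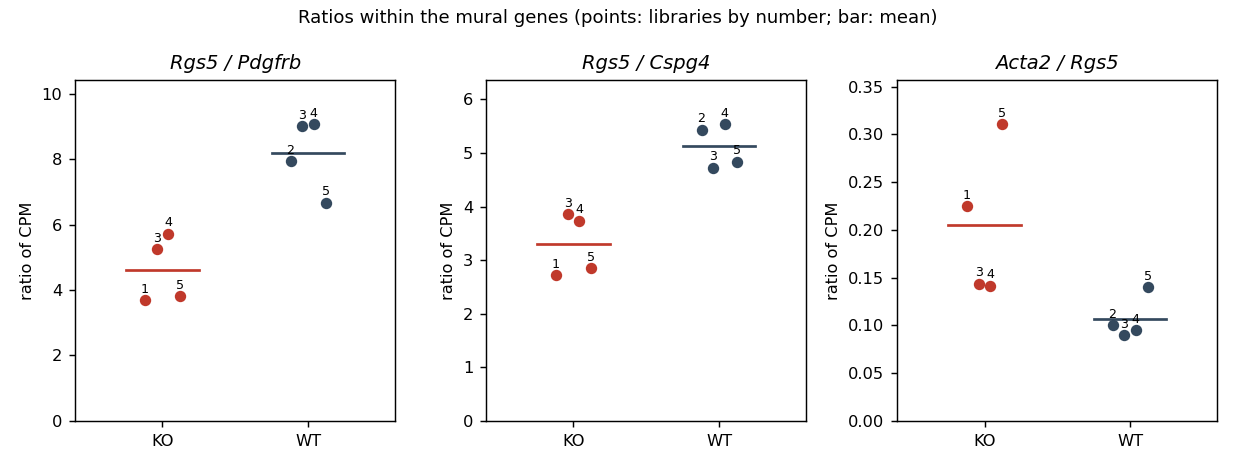
Ratio of the CPM of 2 mural genes within each library, KO left and WT right; points carry the library number and bars are means. Rgs5 per Pdgfrb is 3.69 to 5.72 in KO and 6.67 to 9.07 in WT, Rgs5 per Cspg4 is 2.72 to 3.86 in KO and 4.72 to 5.54 in WT, and Acta2 per Rgs5 is 0.142 to 0.311 in KO and 0.0898 to 0.140 in WT. The ratios are not corrected for GC content.

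The promoters of Acta2 and Rgs5 are shown because these genes lay on opposite sides within the mural group. Each window covers 250 bases before the RefSeq start and 50 after it (GRCm38.p6), on the gene's strand; Acta2 is at chr19:34255324-34255623 (minus strand) and Rgs5 at chr1:169655251-169655550 (plus strand). Capitals mark CArG-like elements, the binding motif of serum response factor, searched as CC, then 6 bases of which at most 1 is G or C, then GG, a form that reads the same way on both strands; the allowance of 1 was added after the exact form had been searched.
Acta2: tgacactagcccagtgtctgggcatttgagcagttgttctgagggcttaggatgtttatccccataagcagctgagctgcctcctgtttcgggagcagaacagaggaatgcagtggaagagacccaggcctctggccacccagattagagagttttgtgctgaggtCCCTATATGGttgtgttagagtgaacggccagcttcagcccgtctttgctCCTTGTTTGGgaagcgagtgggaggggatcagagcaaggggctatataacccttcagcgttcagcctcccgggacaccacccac
Rgs5: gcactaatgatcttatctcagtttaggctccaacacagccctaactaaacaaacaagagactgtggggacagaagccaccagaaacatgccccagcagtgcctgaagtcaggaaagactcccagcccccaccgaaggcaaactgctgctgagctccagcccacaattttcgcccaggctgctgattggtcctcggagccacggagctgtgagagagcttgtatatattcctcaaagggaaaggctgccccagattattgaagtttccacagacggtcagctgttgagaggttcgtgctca
The Acta2 window held 2 such elements and the Rgs5 window none. RefSeq windows were found for 7 of the 10 mural genes, 11 of the 22 blood endothelial genes and 2 of the 3 lymphatic genes. Of the mural windows 1 of 7 held a CArG-like element, of the blood endothelial windows 4 of 15, and of all 32851 windows 9.98%. The exact CArG form, with no G or C inside, and the ETS motif CCGGAAG (either strand) were in 0 of the members' windows, and in 1.63% and 8.86% of all windows. A window without a match says only that these letters are not in it.

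In 24 of the 35 genes the highest of the 8 values was in KO 1 or KO 5. This held for 12 of the 12 genes that were higher in KO at an unadjusted p of 0.05, genes picked for their high KO values. The same share over all genes was not counted, so this cannot be called particular to the vascular genes. The lowest of the 8 values was most often in WT 5 (10 genes), KO 5 (7 genes) or WT 3 (7 genes). Without KO 1 and KO 5, the blood endothelial median was 0.043 and the mural median 0.18, and 3 of 35 genes had an unadjusted p under 0.05, Pdgfrb (log2 fold change 0.32), Mcam (0.31) and Rgs5 (-0.24), with 11.8% of all genes past the same line. In that fit Plvap was at 0.12, Cldn5 at 0.045, Eng at 0.17, Esam at 0.041 and Acta2 at 0.19.

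**Figure D4:**
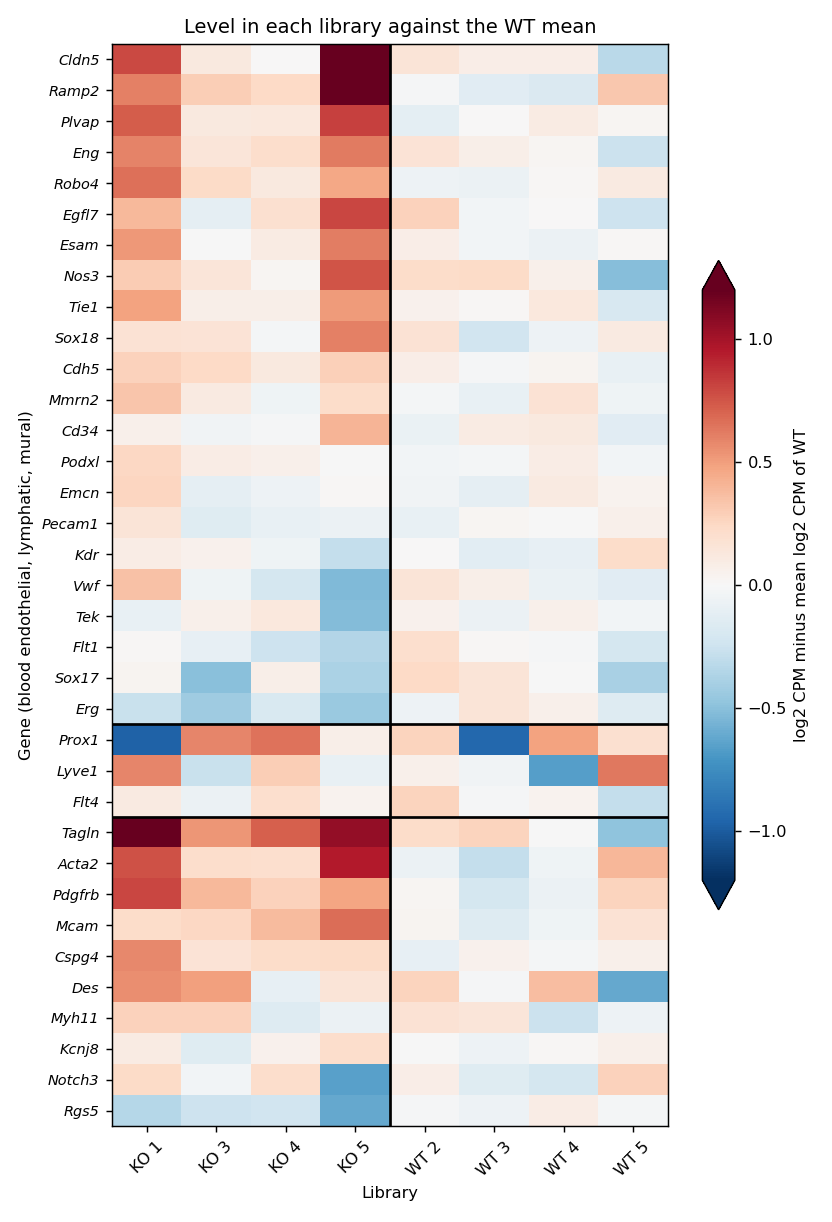
Level of each gene in each library as log2 CPM minus the mean log2 CPM of the WT libraries, KO columns left and WT columns right, genes ordered by fold change within blood endothelial, lymphatic and mural blocks. KO 1 and KO 5 carry most of the red at the top of the endothelial block, while Rgs5 (bottom row) is blue in all 4 KO columns.

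GC content of the transcript moved with these differences. The Spearman correlation, across 16194 genes, between a library's deviation and GC content was 0.33 in KO 1, 0.38 in KO 5, -0.05 in KO 3 and 0.026 in KO 4, against -0.45 to -0.16 in the WT libraries. Across the 35 vascular genes, whose GC content ran from 40.7% (Emcn) to 60.9% (Sox18), GC content and log2 fold change had a Spearman correlation of 0.49, and across the 22 blood endothelial genes of 0.71; over all genes tested it was 0.43. These are descriptions across genes that share the same 8 libraries. Rgs5 had 41.1% GC, Kdr 49.4%, Pdgfrb 54.9%, Cspg4 59.2%, Cldn5 60.5% and Plvap 60.6%. With an offset, chosen after seeing the data, for GC content and length in each library, 7 genes had an unadjusted p under 0.05, 5 of them higher and 2 lower: Pdgfrb (0.37), Acta2 (0.46), Mcam (0.25), Ramp2 (0.41), Tagln (0.73), Rgs5 (-0.22) and Erg (-0.40), with 14.2% of all genes past that line. Plvap was then at 0.20, Eng at 0.20, Cldn5 at 0.34 and Cspg4 at 0.21, and the class medians were 0.10 for blood endothelial and 0.14 for mural genes.

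**Figure D5:**
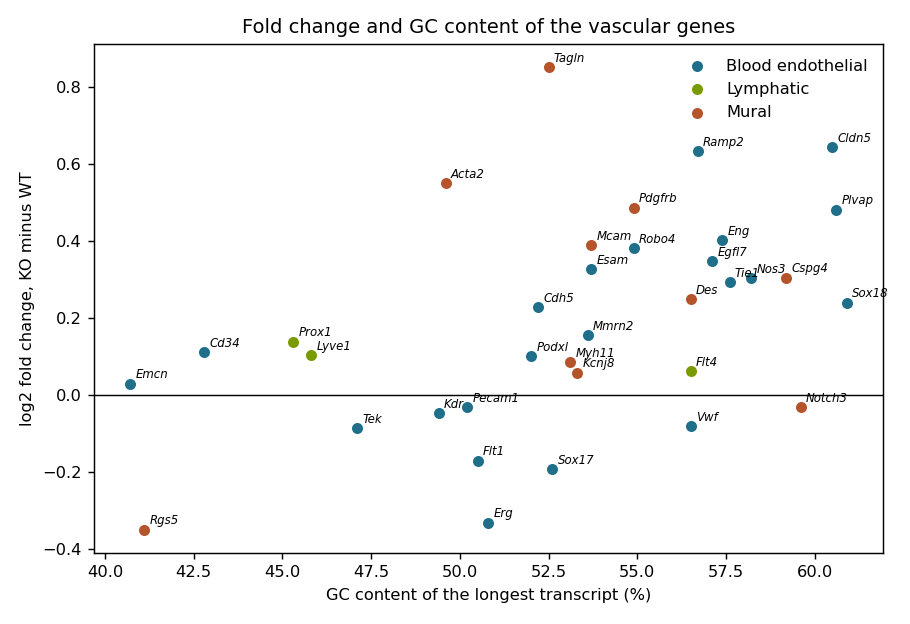
Log2 fold change, KO minus WT, against GC content of the longest transcript for the 35 genes, coloured by class. Blood endothelial genes above 57% GC, such as Plvap, Cldn5 and Sox18, all lie above 0, Rgs5 sits at the low-GC end below 0, and Acta2 and Tagln lie above genes of like GC content.

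Genes of other cell types, some of which share these markers, were read beside them. Of 8 pulp and follicle mesenchyme genes, cells that also make Pdgfrb, 8 were higher in KO (median 0.53 on the log2 scale). For 5 of them the unadjusted p in edgeR was under 0.05. Over all genes tested 53.1% were higher, and 8.7% were higher at that unadjusted p. The mesenchyme genes summed to 9973 to 20420 TPM in KO and 7290 to 17460 TPM in WT. Nerve and Schwann cell genes summed to 114 to 141 TPM in KO and 71.0 to 86.5 TPM in WT, with 5 of 5 higher. Macrophage genes, beside Lyve1, summed to 260 to 335 TPM in KO and 163 to 260 TPM in WT, with 7 of 8 higher. Their part in the vascular differences was not tested. Platelet genes, beside Vwf and Pecam1, summed to 31.8 to 54.5 TPM in KO and 32.5 to 49.0 TPM in WT, 2 of 4 tested higher, and Gp1bb was listed at 0. Gp1bb shares 1902 exon bases with Sept5 on the same strand, which had 1805 reads, so its 0 need not mean absence. Skeletal muscle genes, beside Des, summed to 62.7 to 112 TPM in KO and 54.6 to 97.6 TPM in WT. Erythroid genes summed to 8595, 6130, 5783 and 14430 TPM in KO 1, 3, 4 and 5, against 4643, 5445, 6899 and 2841 TPM in WT 2, 3, 4 and 5. Of 6 erythroid genes 5 were higher in KO, and 2 had an unadjusted p under 0.05 in edgeR. The relation of the erythroid genes to the vascular genes was not tested. Pan-leukocyte genes (Ptprc, Coro1a, Laptm5 and Cd52) were at 42.6 to 72.3 TPM in KO and 31.7 to 54.3 TPM in WT. Odontoblast genes were at 5237 to 13620 TPM in KO and 6103 to 15790 TPM in WT. Oral keratinocyte genes summed to 95.8 to 153 TPM in KO and 252 to 444 TPM in WT, with 5 of 5 lower (median -1.78). In edgeR 5 of these had an unadjusted p under 0.05, beside 6.98% of all genes lower at that line, and 1 passed an adjusted p of 0.05. Any link of this difference to the vascular genes was not tested.

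Further vascular genes, outside the 35, were read from lists fixed by name. Of 35 other endothelial genes 22 were higher and 13 lower (median log2 fold change 0.11). In edgeR 5 of the higher and 2 of the lower genes had an unadjusted p under 0.05, and 0 passed after adjustment. Over all genes tested 53.1% were higher. At that unadjusted p 8.7% of all genes were higher and 6.98% lower. The smallest p values were those of Cyyr1 at -0.47 (SE 0.17), Lmo2, a regulator of blood and endothelial genes, at 0.45 (SE 0.16) and Ackr1, a chemokine-binding protein of venules, at 0.95 (SE 0.34). Ackr1 shares exon bases with Cadm3, which had more reads, so its count is uncertain. Of 23 tested mural genes 15 were higher (median 0.20). The unadjusted p was under 0.05 for 4 of these and for 1 of the lower genes, beside the same shares over all genes. Myl9, a myosin light chain, was at 75.0, 56.4, 56.9 and 90.3 CPM in KO, against 44.6, 42.4, 49.9 and 46.5 CPM in WT (log2 fold change 0.60, SE 0.15, adjusted p = 0.13 in edgeR), all KO above all WT and KO 1 and KO 5 highest. Foxs1, a pericyte transcription factor, was at 1.002 (SE 0.27) and Mylk, the myosin light chain kinase, at 0.33 (SE 0.11). Myocd, the coactivator of smooth muscle genes, had too few reads to test.

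Pdpn, podoplanin, led the other lymphatic genes, with 30.5, 39.8, 44.8 and 52.4 CPM in KO, against 24.6, 24.1, 24.4 and 29.9 CPM in WT (log2 fold change 0.70, SE 0.16, adjusted p = 0.10 in edgeR). Odontoblasts and other cells of the tooth also make Pdpn. Foxc2 and Mmrn1 were at -0.73 (SE 0.34) and -0.72 (SE 0.35), each lower in all KO than in all WT libraries at levels of 1.99 CPM or less on average. Whether their reads came from lymphatic vessels was not tested. Ccl21a was listed at 0. Of the 9 tested genes in that list, 3 were higher and 6 lower (median -0.10), 1 at an unadjusted p of 0.05, beside 15.7% of all genes.

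Signals that drive vessel growth did not pass either. Vegfa, the main angiogenic ligand, was at 215, 180, 204 and 195 CPM in KO, against 236, 235, 201 and 210 CPM in WT (log2 fold change -0.15, SE 0.11). The lymphatic ligand Vegfc was at 0.16 (SE 0.19), Pgf at 0.37 (SE 0.27), Angpt1, the TIE2 agonist, at 0.02 (SE 0.21), Angpt2, its antagonist, at -0.22 (SE 0.16) and Pdgfb, the ligand of PDGFRB, at 0.14 (SE 0.19). In the Notch pathway, Dll4 was at 0.26 (SE 0.15), Notch1 at 0.05 (SE 0.20) and Notch4 at 0.31 (SE 0.12). The groups overlapped in all of these except Notch4, which was higher in every KO library.

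Over the whole list of growth signals and receptors, 26 of 42 tested genes were higher (median 0.08). In edgeR 6 of these and 3 of the lower genes had an unadjusted p under 0.05, beside 8.7% and 6.98% of all genes. After adjustment 0 passed. Angptl4, a lipase inhibitor that acts on vessels, had 43.5, 37.0, 35.8 and 41.6 CPM in KO, against 24.3, 20.6, 21.6 and 28.5 CPM in WT (log2 fold change 0.73, SE 0.13, adjusted p = 0.073 in edgeR). Aplnr, the apelin receptor of venous and growing endothelium, had 83.2, 72.3, 67.2 and 85.4 CPM in KO, against 54.98, 49.9, 55.7 and 52.8 CPM in WT (log2 fold change 0.53, SE 0.11, adjusted p = 0.085 in edgeR). Both were apart from WT in all KO libraries, KO 3 and KO 4 included. Edn1, the vasoconstrictor endothelin-1, was lower in every KO library, at 0.93, 0.55, 0.64 and 0.47 CPM, against 1.94, 2.10, 1.42 and 1.36 CPM in WT (log2 fold change -1.39, SE 0.31, adjusted p = 0.10 in edgeR). The oxygen-dependent regulators had 0 of 7 genes at an unadjusted p of 0.05 (median -0.04), beside 15.7% of all genes. Hif1a was at -0.26 (SE 0.12), Egln1, the prolyl hydroxylase that marks it for decay, at -0.18 (SE 0.11) and Hif3a at 0.16 (SE 0.38).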

How the data were processed

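The authors deposited 1 table of counts, whole reads per Ensembl gene in 8 libraries, not normalised, with gene lengths. Libraries were made from polyA-captured RNA, per the labels' protocols. CASAVA and mm39 stand in the submitters' processing notes; which aligner and counter were used, and whether counting was stranded, is not given in the sources used here. Of 54532 gene IDs 54495 were in GENCODE M21, 98.8% with the same start, so coordinates are those of GRCm38. Columns were matched to libraries by title.

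The filter filterByExpr (count of 10, total of 15) passed 16205 genes. KO was compared with WT in edgeR 4.0.16 (R 4.3.3; TMM factors 0.936 to 1.06; robust quasi-likelihood test, two-sided, Benjamini-Hochberg over all genes tested, threshold 0.05; biological coefficient of variation 17.8%). SE was taken as the absolute log2 fold change over the square root of F. CPM uses TMM-scaled totals and TPM the deposited lengths. Alternatives used DESeq2 1.42.0, limma 3.58.1, other scalings and filters, a replicate block, libraries left out and, added after the data were seen, a GC and length offset. Counting error alone limits genes with few reads. Per-library values are given for members with an unadjusted p under 0.05 and 18 named markers; of the further lists, the 3 genes with the smallest p and 9 named genes. Any other gene from them was picked with its values in view. The members and lists were chosen with earlier results of these data known. Of the 35 genes 12 overlap another gene with reads, 5 of them (Egfl7, Eng, Nos3, Plvap and Tagln) one with over 10% as many. This rule goes by gene spans and reads, not by shared exons. Plvap falls under it with 0 shared exon bases, while Ramp2, with 1103, does not.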

Additional observations from a re-analysis of the deposited data

Results flagged for a closer look

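In 2 of 70 groups of 4 libraries (35 genes in KO and in WT) 1 value lay far from the other 3, where chance alone flags about 1 group in 20. Cspg4 in KO 1 was at 114.6 CPM, while the other KO libraries were at 86.1 to 90.2 CPM. Podxl in WT 4 was at 49.7 CPM, while the other WT libraries were at 45.6 to 46.0 CPM.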

How the results depend on the processing

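Across 18 alternatives, 23 of the 35 genes kept the direction of their log2 fold change and 12 did not in at least 1. By edgeR and DESeq2 0 members passed an adjusted p of 0.05 in any alternative; with limma voom 2 did, Pdgfrb (adjusted p = 0.027) and Mcam (adjusted p = 0.027). The count of all genes called, 5, was 2 with library totals, 464 with DESeq2, 1073 with voom, 241 with no filter, 24 with the GC and length offset, 11 without KO 1 and KO 5 and 0 to 55 with 1 library left out. Members at an unadjusted p of 0.05, 14, were 8 to 15 with 1 library left out (8 without KO 1, with 12.9% of all genes past that line, and 9 without WT 4, with 12.4%), 3 without KO 1 and KO 5 (11.8%) and 7 with the GC and length offset (14.2%). The blood endothelial median, 0.19, was 0.13 to 0.24 with 1 library left out, 0.11 without the members overlapping a gene with over 10% as many reads and 0.043 without KO 1 and KO 5; the lymphatic median was 0.019 to 0.18 with 1 library left out and 0.21 with voom; the mural median, 0.28, was 0.18 to 0.35 with 1 library left out and 0.14 with the GC and length offset. The cause of these shifts was not tested.

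The labels do not say whether the library numbers pair the samples. The correlation of same-numbered KO and WT deviations was -0.18, -0.11 and -0.17. Between differently numbered libraries it ran from -0.31 to 0.36, a spread too wide for these values to settle the pairing. In the fit with the replicate block on libraries 3 to 5, 1 gene was called and 4 members had an unadjusted p under 0.05, against 6.73% of all genes; those were Ramp2, Acta2, Mcam and Pdgfrb, with 6 libraries in place of 8.

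Signs turned in these cases. Kdr went to 0.043 with voom and 0.0019 with the GC offset. Tek went to 0.054 with voom and 0.085 without KO 1 and KO 5. Emcn went to -0.018 with library totals, -0.067 with the block and -0.094 without KO 1 and KO 5. Sox18, at 0.24 in the unaltered fit, went to -0.030 and Flt4 to -0.045 with the GC offset. Cd34 went to -0.010 with voom and -0.034 without KO 1 and KO 5. Lyve1 went to -0.016 with the block and -0.023 without KO 1 and KO 5. Myh11 went to -0.016 with voom. Kcnj8 went to -0.051 without KO 1 and KO 5 and -0.082 with the GC offset. Notch3 went to 0.16 with voom and 0.079 without KO 1 and KO 5. With 1 library left out, 10 genes changed sign in at least 1 of 8 fits; their ranges were Cd34 -0.00112 to 0.153, Emcn -0.0538 to 0.0674, Flt4 -0.0249 to 0.145, Kdr -0.0934 to 0.0317, Lyve1 -0.0883 to 0.347, Myh11 -0.00365 to 0.161, Notch3 -0.125 to 0.128, Prox1 -0.0971 to 0.373, Tek -0.162 to 0.0321 and Vwf -0.256 to 0.0425. Low counts limit Prox1, Lyve1 and Tagln.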

Other observations

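Genes of arteries and veins, picked after their values were seen, are given here as values. Efnb2, the arterial ephrin, had 36.4, 41.8, 41.7 and 45.03 CPM in KO 1, 3, 4 and 5, against 36.8, 34.7, 34.2 and 27.1 CPM in WT 2, 3, 4 and 5 (log2 fold change 0.31, SE 0.12). Its venous receptor Ephb4 had 91.8, 87.0, 80.5 and 101 CPM in KO, against 74.4, 78.1, 71.3 and 75.0 CPM in WT (log2 fold change 0.27, SE 0.10), with every KO library above every WT library. The adjusted p in edgeR was 0.26 for Efnb2 and 0.25 for Ephb4. Hey1, a Notch target of arteries, was at -0.04 (SE 0.13), Gja5, an arterial connexin, at 0.40 (SE 0.27) and Nr2f2, a venous factor, at 0.15 (SE 0.12). Gja5 shares 165 exon bases with Gpr89, which had 3687 reads against 330 for Gja5, so the Gja5 count is uncertain.

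Ptprb, the phosphatase that acts on TIE2 and VE-cadherin, had 114, 128, 105 and 67.2 CPM in KO, against 178, 155, 111 and 128 CPM in WT. KO 5 was lowest, and the groups overlapped (log2 fold change -0.47, SE 0.20, adjusted p = 0.29 in edgeR).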
